A study of Mus musculus with 2 samples.

Results

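Cerebellins are small secreted proteins of the C1q family, and neurexins are presynaptic membrane proteins that some of them bind. The transcripts of 6 of these genes, the cerebellins Cbln1, Cbln2, Cbln3 and Cbln4 and the neurexins Nrxn2 and Nrxn3, were examined among 18193 named genes measured in the cerebellar granule cell layer of the mouse. They were taken by name: every probe set whose only gene symbol in the platform's annotation was one of the 6 was included, which gave 14 probe sets, 7 for the cerebellins and 7 for the neurexins. Of the 6 genes, 4 gave a signal above background in both samples (Cbln1, Cbln3, Nrxn2 and Nrxn3), and Cbln2 and Cbln4 did not. Of all named genes, taken by their brightest probe set, 44.6% did.

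The data came from 2 arrays, both hybridised with RNA from laser-captured granule cell layer of intact C57BL/6J males aged 8 weeks. No genotype other than the strain and no treatment was named. Brain sections were 12 μm thick, and roughly 1 ng of total RNA was amplified in a double labelling cycle that starts at the poly-A tail. The arrays are called sample 1 and sample 2. Since both titles carry animal number 1, they may come from 1 animal, and the spread between them may be technical. Where n = 2 is given, it counts arrays. There was 1 group, so conditions could not be compared and no p-values were computed.

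In the cerebellum, granule neurons send parallel fibres to the dendrites of Purkinje cells. Cbln1 released from these fibres binds neurexins on the presynaptic side and a delta-type glutamate receptor on the Purkinje cell, and this bridge holds the synapse together. Neurexins are made in long and short forms from separate promoters and are heavily spliced, and cerebellins bind the forms that carry one particular spliced-in insert. Cbln3 is known to be secreted only in complexes with another cerebellin such as Cbln1.

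The labelled layer was checked against marker genes. All 9 measured granule neuron markers were above background in both samples, led in list order by the GABA-A receptor subunit gene Gabra6 (8258 ± 97.3, mean ± SD of intensity, n = 2) and the transcription factor genes Zic1 (6754 ± 53.6) and Neurod1 (4066 ± 326). Some markers of other cells passed too, beside 44.6% of all named genes. Of the measured markers, 7 of 9 passed for Purkinje cells, 4 of 9 for Golgi cells and other GABAergic interneurons, 2 of 3 for unipolar brush cells, 5 of 7 for Bergmann glia and astrocytes, 4 of 5 for oligodendrocytes, 3 of 6 for microglia and 3 of 5 for endothelial cells. The interneuron and microglia counts are near the share of all named genes. With the log2 values of each gene's probe sets averaged, 1 interneuron marker and 2 Bergmann glia and astrocyte markers passed. Summed intensities are given to compare the samples within a list, and not lists with each other. In samples 1 and 2 the sum was 28622 and 29957 for the granule neuron list, 1139 and 1301 for the Purkinje cell list, 699 and 662 for the interneuron list and 3936 and 3688 for the Bergmann glia and astrocyte list. It was 1012 and 969 for unipolar brush cells, 7653 and 7149 for oligodendrocytes, 541 and 867 for microglia and 899 and 886 for endothelial cells. The GABA-synthesising enzyme gene Gad1 is on both the Purkinje cell and the interneuron list. No marker was at 0 in either sample, although several were below threshold, such as the Purkinje cell glutamate transporter gene Slc1a6 at 4.4 and 8.4. The part of these other cells in the signals below was not tested. In tissue of this kind, fewer cells of a type and less RNA per cell cannot be told apart.

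A probe set was called above background where its intensity exceeded, in both samples, the 95th percentile of 125 probe sets for genes typical of other organs. That threshold stood at 10.8 for sample 1 and at 15.0 for sample 2. Of the 14 probe sets, 9 were above background in both, 1 in sample 2 alone and 4 in neither. Over all 45037 probe sets other than controls, 33.3% were above background in both. Intensities are in the array's linear units. They depend on each probe set's own affinity, so values of different probe sets or genes are not ranked against each other here.

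**Figure D1:**
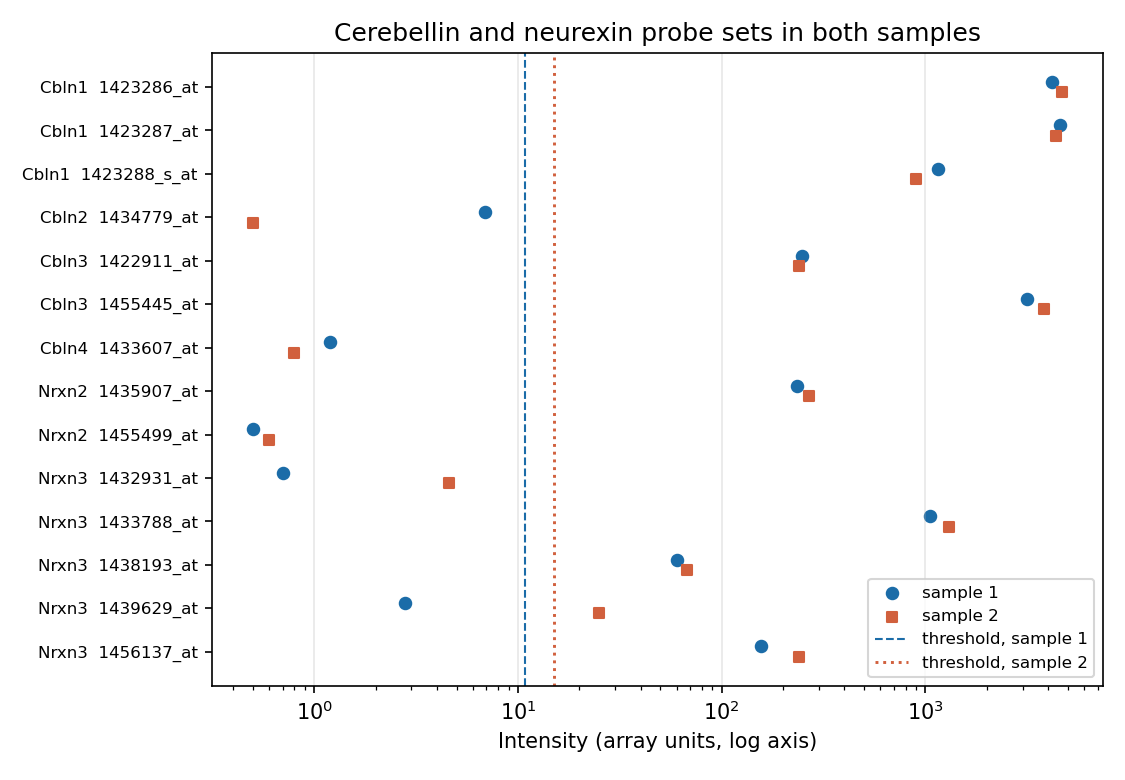
Intensity (array units, log axis) of the 14 cerebellin and neurexin probe sets in sample 1 (circles) and sample 2 (squares), with 1 point per array and the background threshold of each sample as a dashed or dotted line. All probe sets of Cbln1 and Cbln3 lie to the right of both lines, those of Cbln2 and Cbln4 lie to the left, and those of Nrxn2 and Nrxn3 fall on both sides.

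Cbln1, the founding cerebellin, was measured by 3 probe sets, all above background in both samples. Probe set 1423286_at read 4190 in sample 1 and 4680 in sample 2. Probe set 1423287_at read 4548 and 4389. Both were brighter than all 125 background probe sets in each sample, the first at 387 and 313 times the threshold and the second at 420 and 293 times. The third, 1423288_s_at, read 1150 and 898, and its suffix marks a design that may match more than 1 transcript. The 3 did not move one way between the samples: the first was higher in sample 2 and the other two in sample 1, by 1.12, 1.04 and 1.28 times. The mean intensities were 4435 ± 346, 4469 ± 113 and 1024 ± 178 (SD, n = 2).

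Cbln3, the cerebellin that needs a partner for its secretion, was measured by 2 probe sets, both above background in both samples. Probe set 1455445_at read 3146 in sample 1 and 3814 in sample 2, a mean of 3480 ± 472 (SD, n = 2). Probe set 1422911_at read 247 and 239, a mean of 243 ± 5.59. Both exceeded every background probe set in each sample. The first was 1.21 times higher in sample 2 and the second 1.03 times higher in sample 1, so the 2 probe sets gave opposite directions.

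Cbln2, a cerebellin of other brain regions, had 1 probe set, 1434779_at, which read 6.9 in sample 1 and 0.5 in sample 2. Both values lay below threshold. In sample 1 it exceeded 99 of the 125 background probe sets, and in sample 2 it exceeded 17. Cbln4, likewise best known from outside the cerebellum, had 1 probe set, 1433607_at, with 1.2 and 0.8, above 53 and 25 of the background probe sets. With a single probe set each, a transcript that these probes miss would not be seen, so neither gene is called absent.

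The region before the transcription start is shown for Cbln3 and Cbln4, the cerebellins of opposite detection whose start windows the RefSeq promoter table listed (build GRCm38.p6). The arrays do not measure promoter activity. Of the 6 genes, 3 had an entry there, the third being Nrxn3. Each line gives the 250 bases before the start, 5′ to 3′ on the gene's strand, with CpG dinucleotides in capitals. The window of Cbln3 is chr14:55884257-55884506 on the minus strand, and that of Cbln4 is chr2:172043467-172043716 on the minus strand.
Cbln3: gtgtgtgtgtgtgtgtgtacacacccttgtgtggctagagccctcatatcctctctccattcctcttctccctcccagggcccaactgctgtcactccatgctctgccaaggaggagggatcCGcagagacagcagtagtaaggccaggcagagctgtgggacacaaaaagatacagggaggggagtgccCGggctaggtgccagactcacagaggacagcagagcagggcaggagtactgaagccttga
Cbln4: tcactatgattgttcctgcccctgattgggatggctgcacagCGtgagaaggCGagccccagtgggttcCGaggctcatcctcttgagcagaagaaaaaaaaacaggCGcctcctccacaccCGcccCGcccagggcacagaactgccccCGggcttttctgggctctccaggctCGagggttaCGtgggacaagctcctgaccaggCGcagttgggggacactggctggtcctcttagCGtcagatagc

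The Cbln3 window held 2 CpG dinucleotides and the Cbln4 window 11, at a GC content of 57.6% and 60.8%. Over 32851 windows of the same length the median was 6, and 71.0% held more than the Cbln3 window, against 33.5% for Cbln4. A search on both strands for the general E-box CANNTG, the form bound by basic helix-loop-helix factors, found 1 match in each window, and 66.2% of all windows held at least 1. The E-box CAGATG, which is a case of the general form, was in neither window (14.4% of all windows), and TATAAA was in neither (12.4%). These are matches of letters in a fixed window. For Nrxn3 the table listed 3 start windows, all on the plus strand of chromosome 12, with 2, 5 and 12 CpG dinucleotides in the 250 bases before them, in order along the gene. The probe sets carry no positions, so none could be tied to a start.

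Nrxn2, one of the presynaptic receptors for cerebellins, was measured by 2 probe sets with opposite results. Probe set 1435907_at read 233 in sample 1 and 269 in sample 2, a mean of 251 ± 25.3 (SD, n = 2), above all background probe sets in both. Probe set 1455499_at read 0.5 and 0.6, lower than 99 and 104 of the 125 background probe sets. With the mean log2 intensity of both probe sets in place of the brighter one, Nrxn2 was not above background. That mean is pulled down by the low values of 1455499_at. The annotation names the same source sequence for both. Among all 3223 pairs of probe sets of 1 gene that share a source sequence, 18.4% were split in this way, with 1 above background in both samples and 1 in neither.

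Nrxn3, the other neurexin measured, had 5 probe sets, of which 3 were above background in both samples. Probe set 1433788_at read 1051 in sample 1 and 1310 in sample 2. Probe set 1456137_at read 155 and 238, and 1438193_at read 60.2 and 67.7. At the 99th percentile threshold the last of these did not pass. All 3 were higher in sample 2, by 1.25, 1.54 and 1.12 times. Probe set 1439629_at read 2.8 in sample 1, below threshold, and 25.1 in sample 2, above it. Probe set 1432931_at was below threshold in both, at 0.7 and 4.6. A mix of this kind was common: of 9010 genes measured by 2 or more probe sets, 50% combined probe sets that passed in both samples with others that did not, and among the 4 such members these were the neurexins, while every probe set of Cbln1 and Cbln3 passed.

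Labelling from the poly-A tail favours probe sets near the 3′ end. The control probe sets for Gapdh gave a 3′ to 5′ intensity ratio of 10.1 in sample 1 and 10.4 in sample 2, and those for Actb gave 29.0 and 37.9. Where the neurexin probe sets lie on their transcripts was not known here, so the part of this in their disagreement was not tested. The same holds for transcript forms that only some probe sets match.

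For the 9 detected probe sets, the absolute log2 difference in intensity ran from 0.05 to 0.62 with a median of 0.21, against a median of 0.41 for every detected probe set of the table. Differences shrink with intensity, and against probe sets as bright as themselves the brightest members did not stand closer. The 5 with a mean intensity of 1000 or more had absolute log2 differences of 0.05 to 0.36 with a median of 0.28, whereas all 803 such probe sets had a median of 0.12 and an SD of the signed difference of 0.19. The 3 members between 100 and 1000 ran from 0.05 to 0.62 with a median of 0.21, against a median of 0.31 for all 4985 such probe sets. The 1 detected member between 20 and 100 was at 0.17, against a median of 0.62 for all 9004. These classes were taken with no background filter. Of the 9 detected probe sets, 3 were higher in sample 1 and 6 in sample 2. Their median log2 difference, sample 1 minus sample 2, was −0.17, beside −0.09 for all detected probe sets.

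Of the 10 member probe sets above background in at least 1 sample, 1 was at least 2-fold apart, the Nrxn3 probe set 1439629_at with a log2 difference of −3.16. Over all probe sets chosen the same way, 31.7% were at least 2-fold apart. The share by intensity was taken over all 45037 probe sets, with no background filter, and is not a division of the 31.7%. It was 0% of the 803 probe sets with a mean intensity of 1000 or more, the class of all 3 Cbln1 probe sets, 1455445_at of Cbln3 and 1433788_at of Nrxn3. It was 6.88% between 100 and 1000, the class of 1422911_at of Cbln3, 1435907_at of Nrxn2 and 1456137_at of Nrxn3, and 30.8% between 20 and 100, the class of 1438193_at of Nrxn3. Under 20 it was 58.4% of 30245 probe sets, and the 5 remaining member probe sets lie there. The log2 differences of Cbln2 (3.79) and of Nrxn3 1432931_at (−2.72) were large but rest on values below threshold on both sides, and are not read as differences.

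**Figure D2:**
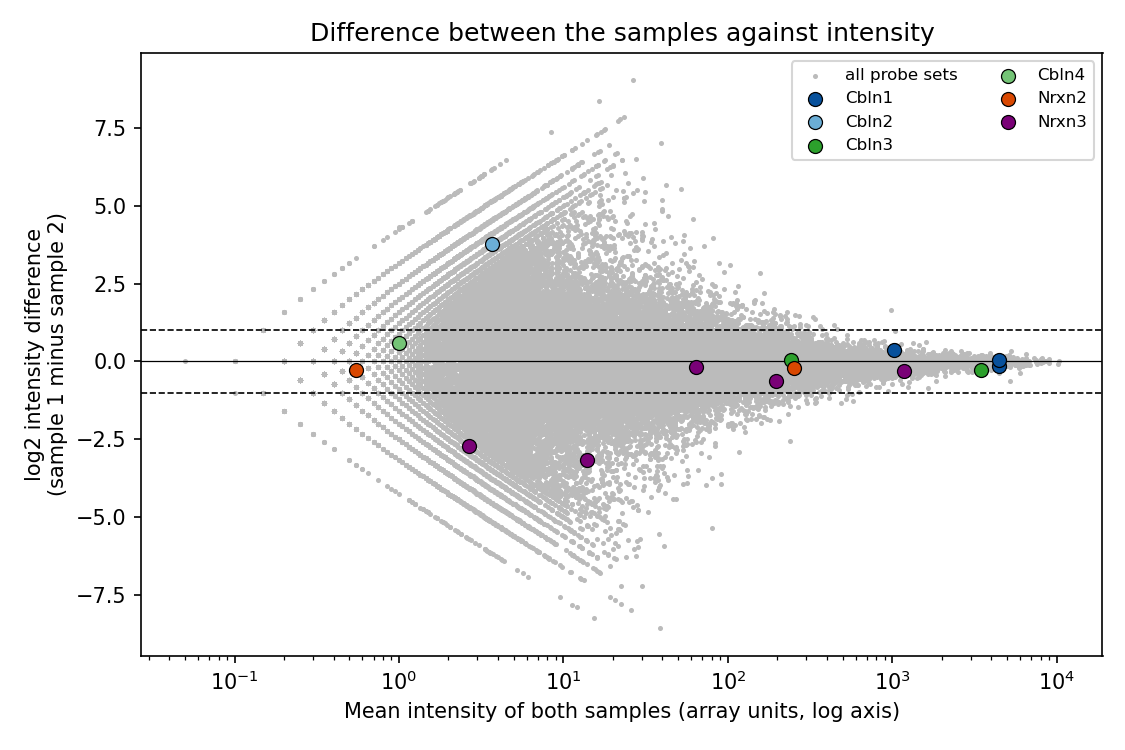
Log2 intensity difference (sample 1 minus sample 2) of every probe set against its mean intensity over both samples (array units, log axis), with 1 grey point per probe set and the cerebellins and neurexins in colour; dashed lines mark a 2-fold difference. The 9 members above background in both samples lie within 0.62 of 0, and the 3 outside the dashed lines have a mean intensity under 20.

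The partners and relatives of these proteins were described from a list of 31 genes, of which 28 were measured and 3 were not analysed here. Each gene was taken at its brightest probe set, against a threshold formed the same way from 93 background genes (13.1 in sample 1 and 18.1 in sample 2). Where a gene's probe sets are counted, the lower probe set threshold applies (10.8 in sample 1 and 15.0 in sample 2). Of the 28 genes, 17 were above background in both samples (60.7%), beside the same 44.6% of all 18193 named genes. This share is a description of a chosen list, and 9 genes passed where the 99th percentile was the threshold. The median log2 difference of the 17 was −0.004, beside −0.08 for all genes above background in both, with 8 higher in sample 1 and 9 in sample 2.

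On the receptor side, the delta-type glutamate receptor gene Grid1 was below threshold, with 2.7 in sample 1 and 10.8 in sample 2 at the brighter of its 2 probe sets. The C1q-like proteins are secreted relatives of the cerebellins. C1ql1, known as the product of climbing fibres that enter the cerebellum from outside, was below threshold at 7.9 and 7.0, and C1ql2 was at 1.5 and 1.3. C1ql3 passed with 50.4 and 31.6 at 1 of its 3 probe sets. Adgrb3, the adhesion receptor that C1q-like proteins bind, was above background at 205 and 264.

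Other ligands of neurexins were detected for 8 of 14 genes (57.1%), beside 44.6% of all named genes. Of the neuroligins, the main postsynaptic partners, Nlgn2 passed at 33.7 in sample 1 and 78.1 in sample 2, while Nlgn1 (9.8 and 8.3) and Nlgn3 (8.3 and 9.3) did not. Nlgn2, the neuroligin of inhibitory synapses, was the 1 gene of the 17 that was at least 2-fold apart, with a log2 difference of −1.21. The mean intensity of this probe set was 55.9, and 30.8% of all probe sets between 20 and 100 were at least 2-fold apart. The other Nlgn2 probe set went the opposite way, at 11.6 in sample 1 and 6.1 in sample 2, and was not above background in both. Among the leucine-rich LRRTM proteins 3 of 4 passed. Lrrtm3 was above background at all 4 of its probe sets, the brightest at 477 and 314. Lrrtm2 read 307 and 355, with 2 of its 3 probe sets above background in both samples. Lrrtm1 read 35.6 and 47.6, with 1 of 3, whereas Lrrtm4 read 3.3 and 7.5.

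The neurexophilins, secreted glycoproteins that bind the long neurexins, passed for 1 of 4 genes, Nxph3, at 40.4 and 39.2. The values of Nxph1 (5.7 and 9.9), Nxph2 (0.6 and 1.0) and Nxph4 (3.9 and 6.7) were below threshold. Dystroglycan, encoded by Dag1, passed at 125 and 94.1, with all 4 of its probe sets above background in both samples. The latrophilin gene Adgrl1 passed at 138 and 188. The calsyntenin gene Clstn3 passed narrowly, at 30.8 and 18.5 against thresholds of 13.1 and 18.1.

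All 6 genes of cytoplasmic scaffold proteins that assemble on the tails of neurexins passed at their brightest probe set, beside 44.6% of all named genes. At the 99th percentile threshold Apba1, Apba2 and Lin7b did not pass. With the log2 values of each gene's probe sets averaged, Apba1, Lin7b and Lin7c did not. Cask, the scaffold kinase that binds the neurexin tail, read 293 and 346 at 1 of 4 probe sets above background in both samples. Its complex partners of the Lin7 family read 3869 and 3734 for Lin7a, 33.4 and 33.5 for Lin7b, and 165 and 112 for Lin7c. All 3 probe sets of Lin7a were above background in both samples, as were 3 of 4 for Lin7b and 2 of 4 for Lin7c. The Mint adaptor genes Apba1 (43.8 and 33.0, at 1 of 3 probe sets) and Apba2 (41.4 and 48.3) also passed.

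The RNA-binding proteins of the Khdrbs family control the inclusion of the neurexin insert that cerebellins recognise. Khdrbs1, expressed in most tissues, passed at 758 and 877, at a probe set of the _x_at kind, which may match further sequences; 5 of its 7 probe sets were above background in both samples. Khdrbs2 was above threshold in sample 1 alone (17.3, against 8.2 in sample 2). Khdrbs3 read 12.4 and 0.4, below threshold in both. None of the neurexin probe sets could be tied to the insert itself.

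**Figure D3:**
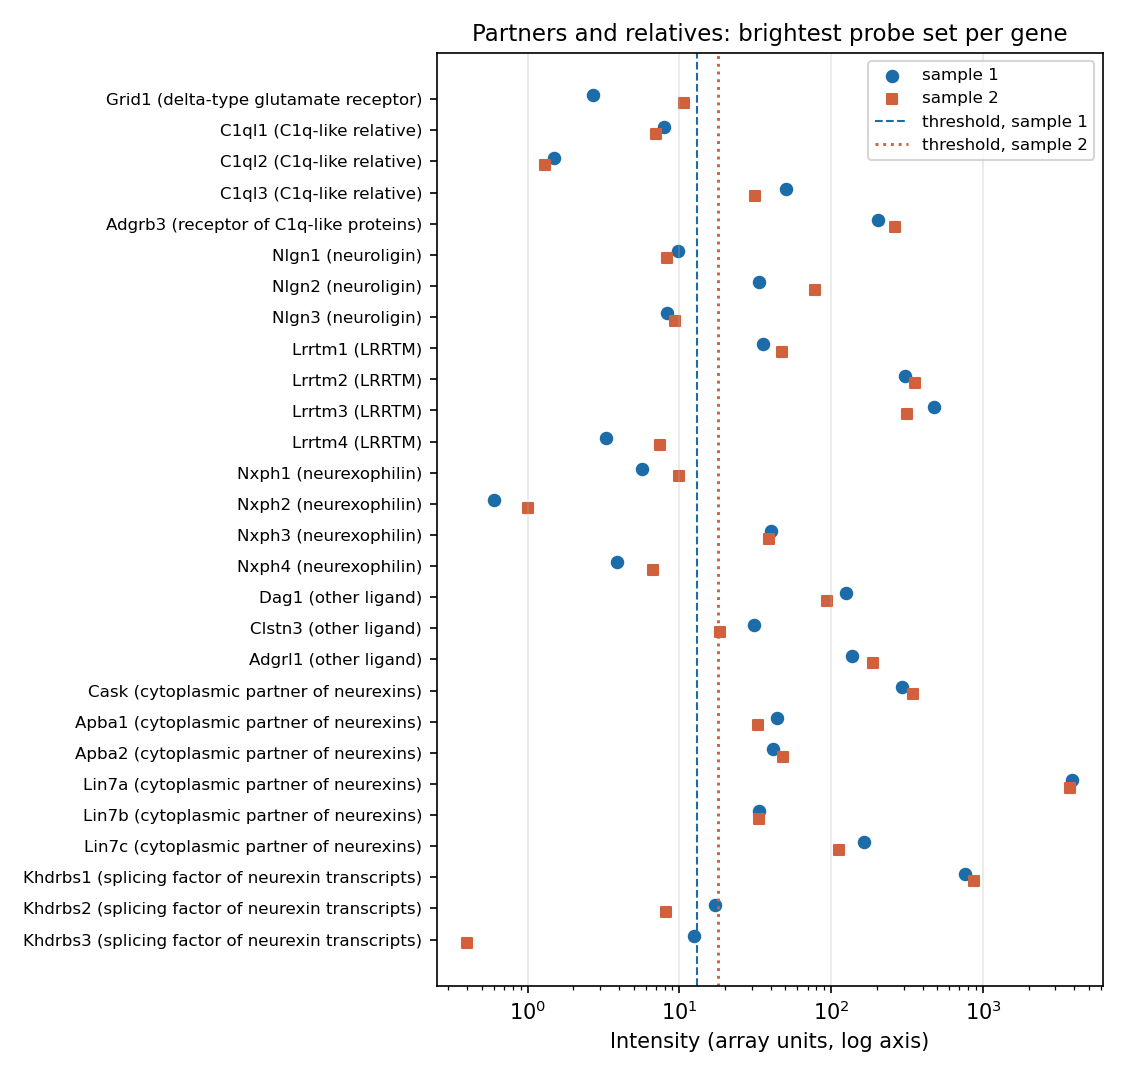
Intensity (array units, log axis) of the brightest probe set of 28 relatives, ligands, cytoplasmic partners and splicing factors of cerebellins and neurexins in sample 1 (circles) and sample 2 (squares), with the gene threshold of each sample as a dashed or dotted line. All 6 cytoplasmic partners lie to the right of both lines, whereas 6 of the 14 other neurexin ligands do not.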

How the data were processed

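Per the submitters' processing notes, the authors made the deposited intensities, 1 linear value for each probe set on each array, with GCOS, an Affymetrix program whose version and scaling were not given in the sources used here. Among 45101 probe sets 64 were controls, and the median intensities were 7.9 and 8.3. Values were used as deposited. For log2, zeros (2 in sample 1, 1 in sample 2) were set to 0.1. Apart from controls, 34945 probe sets had 1 gene symbol in the platform's annotation; 34741 of these, and all 14 members, matched RefSeq by gene ID. The whole table had 932 with several symbols and 9211 not listed.

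Background thresholds were the 95th percentile of 93 measured of 105 listed genes typical of other organs. All 14 member probe sets and every measured pathway gene were described; markers were named in list order. No gene was named for a like pattern, since 2 arrays of 1 group hold none. The members and lists were chosen with earlier results of these data known. The counting steps were tested on simulated data with the same log2 spread at every intensity. In these arrays the spread grows as intensity falls, so that test does not cover weak probe sets. The number of arrays limits the precision. Python 3.11.15, numpy 2.4.6 and pandas 2.3.3 were used. Alternatives were other percentiles (90 and 99), an olfactory receptor background, quantile normalization, median scaling and log2(value + 16). Others were each sample alone, no _x_at or _s_at probe sets, the mean log2 value of a gene's probe sets, and no filter.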

Additional observations from a re-analysis of the deposited data

How the results depend on the processing

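Across the percentile, background set, scaling, single-sample and probe set alternatives, the count of member probe sets above background ran from 8 to 10 against 9. Leaving out a sample gave 9 and 10. The loss at the 99th percentile was Nrxn3 1438193_at, at 60.2 in sample 1 against a threshold of 64.1. The 4 detected member genes stayed 4 except with the mean log2 value of all probe sets, which gave 3. Nrxn2 was then, back in linear units, 10.8 and 12.7 against thresholds of 11.5 and 16.1. This count's alternatives were chosen after the data were seen. Of the pathway list, 9 genes passed at the 99th percentile (thresholds of 79.5 and 52.8) against 17: Adgrb3, Lrrtm2, Lrrtm3, Dag1, Adgrl1, Cask, Lin7a, Lin7c and Khdrbs1. With the mean log2 value of all probe sets 12 passed. With each sample alone, 17 and 18 passed. The marker count of 36 ran from 29 to 39. With the log2 values of each gene's probe sets averaged, the interneuron list gave 1 instead of 4. The Bergmann glia and astrocyte list then gave 2 instead of 5. With no background filter, 3 member probe sets were at least 2-fold apart instead of 1; the added ones, of Cbln2 and Nrxn3, are below threshold in both samples. No member's difference changed sign under quantile normalization or median scaling, the latter of which shifts every log2 difference by the same amount. Adding 16 before log2 cannot change a sign, so it does not check direction. Over these alternatives, 34 member differences moved by less than the SD of the samples' log2 values and 8 by at least that. With log2(value + 16), the difference of Cbln2 went from 3.79 to 0.47 and that of Nrxn3 1432931_at from −2.72 to −0.30. No paired analysis was possible because there is 1 group.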
